A study of Homo sapiens with 15 samples.

Results

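The genes described here encode SCD, the stearoyl-CoA desaturase that puts the double bond into newly made saturated fatty acids, and 9 further enzymes of fatty acid synthesis, elongation, desaturation and activation: SCD5, FASN, ACACA, ACLY, ELOVL5, ELOVL6, FADS1, FADS2 and ACSL3. The set was drawn up around SCD because its messenger RNA fell so far when ETV6 was put back into leukaemia cells, and the other members were added as genes of the same pathway with results of these data known. Of the 10 genes, 9 are in the gene table of 33367 named genes. For ACACA, which encodes the acetyl-CoA carboxylase that makes malonyl-CoA, no transcript could be named, so that gene was not analysed here.

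The libraries came from Reh, an established line of human B-lymphoblastic leukaemia cells with the ETV6::RUNX1 fusion, in which the remaining ETV6 allele is deleted. In the ETV6 experiment, 9 libraries came from cell populations transduced with a doxycycline-inducible (DoxOn) vector for V5-tagged ETV6 (ETV6_WT), its V5-tagged R399C form, altered in the DNA-binding domain (ETV6_R399C), or the blue fluorescent protein tagBFP, 3 libraries each. Doxycycline was given at 500 ng/ml for 48 h. In the CRISPR interference experiment, 6 libraries came from cell populations with a stably integrated, doxycycline-inducible dCas9-KRAB, an inactive Cas9 fused to a repressor domain, that were sorted for a fluorescent guide vector against the ERG promoter (sgERG) or for a non-targeting guide (sgCtrl), 3 libraries each. Doxycycline was again given at 500 ng/ml, here for 72 h after the sort. All 15 libraries were thus from doxycycline-treated Reh cells, and the ETV6 transgenes were driven by the induced vector. The labels do not say whether the replicates were separate cultures, so the p-values measure the spread between these libraries, which may be technical.

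Cells make fatty acids from citrate: ACLY releases acetyl-CoA in the cytosol, acetyl-CoA carboxylase turns it into malonyl-CoA, and the synthase FASN builds palmitate from them. ELOVL6 lengthens palmitate to stearate, and SCD and SCD5 convert both into the monounsaturated fatty acids palmitoleate and oleate. FADS1, FADS2 and ELOVL5 act on polyunsaturated fatty acids taken from the diet or medium, and ACSL3 couples fatty acids to coenzyme A. Most of these genes are textbook targets of the SREBP transcription factors, and SCD is also a target of the LXR nuclear receptors.

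The libraries held 22040338 to 52481351 reads. ETV6 averaged 486 ± 18.1 CPM, the counts scaled to library size, in ETV6_WT, 373 ± 14.7 CPM in ETV6_R399C and 5.86 ± 0.327 CPM in tagBFP libraries, and ERG averaged 105.1 ± 4.13 CPM in sgERG and 524 ± 6.35 CPM in sgCtrl libraries (SD, n = 3 each), as the labels say. Of 10 B-lymphoblast markers, 9 stood at 1 CPM or more in each of the 5 groups, and VPREB1 had 0 reads in all libraries. The summed level of the 10 was 7054 to 7241 CPM in ETV6_WT, 6703 to 6794 CPM in ETV6_R399C, 5602 to 5655 CPM in tagBFP, 7773 to 7872 CPM in sgERG and 8953 to 9058 CPM in sgCtrl libraries. Of the 9 tested, 8 were higher and 0 lower with each transgene against tagBFP, where 17.6% (ETV6_WT) and 18.8% (ETV6_R399C) of all genes tested were higher. In sgERG against sgCtrl libraries 1 marker was higher and 3 were lower, where 6.89% of all genes tested were higher and 7.74% lower. Of 19 markers of other cell types, 3 or 4 reached 1 CPM in a group, while CD2, CD3D, CDH5, HBB and HBA1 had 0 reads in every library. The summed level of the 19 was 88.8 to 93.9 CPM in ETV6_WT, 98.98 to 102.7 CPM in ETV6_R399C, 65.1 to 66.2 CPM in tagBFP, 149 to 170 CPM in sgERG and 123 to 124 CPM in sgCtrl libraries, with the myeloid gene MPO the highest of the list in all 5 groups. The share of mitochondrial reads was 0.956 to 1.16% in ETV6_WT, 1.13 to 1.22% in ETV6_R399C and 1.16 to 1.42% in tagBFP libraries, and 2.58 to 3.30% in sgERG and 2.84 to 3.16% in sgCtrl libraries. The part of these differences in the results on the enzymes was not tested.

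SCD (chromosome 10, 100347124 to 100364834, plus strand, hg38) was low in every library with an ETV6 transgene. It had 9.44, 8.36 and 8.67 CPM in the ETV6_WT libraries, 6.45, 6.85 and 5.79 CPM in the ETV6_R399C libraries, and 77.2, 73.0 and 71.9 CPM in the tagBFP libraries. No library with either form of ETV6 came near the lowest tagBFP library. The differences amounted to -3.07 on the log2 scale for ETV6_WT and -3.54 for ETV6_R399C against tagBFP, an 8.41-fold and an 11.7-fold lower level. The set was chosen by these SCD read counts, so they are given as a description with no test. The reads behind them were 194 to 217 per ETV6_WT library, 134 to 167 per ETV6_R399C library and 1705 to 2439 per tagBFP library. In bulk RNA, fewer cells with SCD transcripts and less SCD transcript per cell cannot be told apart.

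Over all 14242 genes tested, the log2 difference of SCD ranked 15 from the lowest for ETV6_WT and 7 from the lowest for ETV6_R399C against tagBFP. Among the 10304 of them that averaged at least 5 CPM in tagBFP, the group in which SCD is high, it ranked 3 and 2. The ranks rest on the fall for which SCD was picked, so they are a description only. Each of the 3 ETV6_WT libraries was above each of the 3 ETV6_R399C libraries, a log2 difference of 0.47 for ETV6_WT against ETV6_R399C. That contrast uses the same SCD read counts, so it too is given with no test. ETV6 itself was also higher in ETV6_WT than in ETV6_R399C libraries, as the CPM values above show.

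SCD5 (chromosome 4, 82629539 to 82798857, minus strand), which encodes the other human stearoyl-CoA desaturase, had 35.8, 36.4 and 36.4 CPM in ETV6_WT libraries, 37.6, 37.4 and 40.7 CPM in ETV6_R399C libraries, and 37.6, 35.6 and 32.9 CPM in tagBFP libraries. Each transgene group overlapped tagBFP. The log2 difference was 0.03 ± 0.05 (SE) for ETV6_WT and 0.12 ± 0.05 for ETV6_R399C against tagBFP, and neither passed the edgeR quasi-likelihood test (adjusted p = 0.695 and 0.0886). Without tagBFP replicate 1 the ETV6_R399C difference was 0.17 and passed (edgeR adjusted p = 0.0245).

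**Figure D1:**
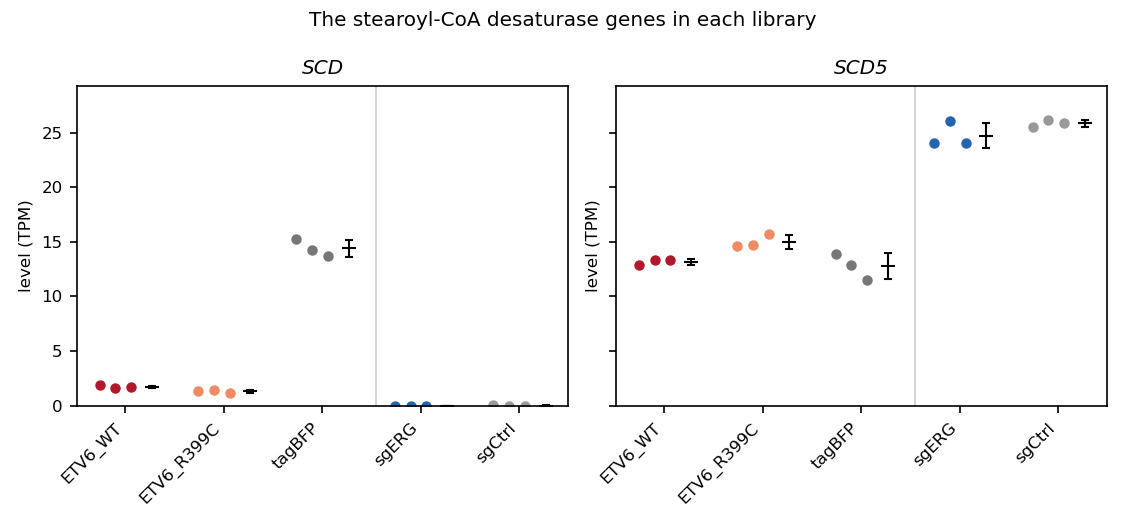
SCD (left) and SCD5 (right) in TPM, a level per transcript length, 3 libraries per group as points and the mean ± SD beside them. The grey line parts the ETV6 experiment from the CRISPR interference experiment. SCD stands at 13.7 to 15.3 TPM in tagBFP libraries and at or under 1.85 TPM in every other library, while SCD5 is between 11.5 and 26.1 TPM in all 15.

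Because the desaturases do the same reaction, their levels per transcript length were set side by side in TPM, as the authors deposited them. SCD had 1.74 ± 0.0977 TPM in ETV6_WT, 1.33 ± 0.129 TPM in ETV6_R399C and 14.4 ± 0.809 TPM in tagBFP libraries, against SCD5 levels of 13.2 ± 0.275, 15.0 ± 0.601 and 12.8 ± 1.20 TPM in the same groups (SD, n = 3 each). SCD made up 11.6 ± 0.796% of the TPM of the pair with ETV6_WT, 8.16 ± 0.996% with ETV6_R399C and 53.0 ± 1.10% with tagBFP. The summed TPM of the pair was 14.9 ± 0.180 in ETV6_WT, 16.3 ± 0.484 in ETV6_R399C and 27.2 ± 1.99 in tagBFP libraries. Most of the TPM of the pair was therefore SCD5 in both transgene groups, and the pair was near balance in tagBFP libraries.

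In the CRISPR interference cells SCD was close to absent whichever guide they carried. SCD had 0 reads in each of the 3 sgERG libraries and 4, 1 and 0 reads in the 3 sgCtrl libraries. For sgERG a count of 0 allows up to 0.0312 CPM over the group before TMM scaling, which is 3 reads of the total and takes in counting error alone. SCD was too low there to be tested. SCD5 had 54.1, 59.6 and 56.6 CPM in sgERG libraries and 59.4, 60.6 and 60.4 CPM in sgCtrl libraries, which overlapped, and its log2 difference of -0.08 ± 0.05 did not pass (edgeR adjusted p = 0.284). SCD was the only analysed member under 1 CPM in any CRISPR interference library: the lowest library value of any other analysed member was 16.4 CPM, that of ELOVL6. Of the 9202 genes at 10 CPM or more in every tagBFP library, 15 were under 1 CPM in all 6 CRISPR interference libraries, SCD among them. The vector, the sort, the induction time and the library properties all differ between the experiments and cannot be told apart, so no difference between tagBFP and sgCtrl was tested.

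The SCD gene has a single transcript in the tables, and the processed pseudogene SCDP1 had 0 reads in every library, so no SCD reads were assigned to that copy. Of 21 annotated genes within 250000 bases of SCD, 13 are in the gene table and 8 were tested in the ETV6 experiment. Among these 8, 2 were lower and 0 higher with ETV6_WT against tagBFP, where 18.9% of all genes tested were lower, and 3 were lower and 0 higher with ETV6_R399C against tagBFP, where 22.1% were lower. NDUFB8, a subunit of respiratory complex I, had log2 differences of -0.29 ± 0.05 with ETV6_WT and -0.44 ± 0.05 with ETV6_R399C (edgeR adjusted p = 5.94e-04 and 3.04e-05), and ERLIN1, an endoplasmic reticulum protein that takes part in cholesterol sensing, had -0.15 ± 0.04 and -0.17 ± 0.04 (edgeR adjusted p = 0.00668 and 0.00252). CHUK, a kinase of the NF-kappaB pathway, was lower with ETV6_R399C by -0.23 ± 0.06 (edgeR adjusted p = 0.00779). In ETV6_WT against ETV6_R399C 0 of the 8 passed by edgeR, where 21.4% of all genes tested did, and 0 by DESeq2, and 4 had an unadjusted p under 0.05 in edgeR. The span of AL133352.1 overlaps those of SEC31B and NDUFB8 on the same strand and that of HIF1AN on the other, the spans of NDUFB8 and HIF1AN overlap, and so do those of ERLIN1 and CHUK, so the counts of these genes may not be fully separate. Of 9 neighbours tested in the CRISPR interference experiment, 1 was lower and 0 higher in sgERG than in sgCtrl libraries, where 7.74% of all genes tested were lower. It was SEC31B, a coat protein gene of vesicle transport, at -0.43 ± 0.08 (edgeR adjusted p = 0.00356), and its span is among those that overlap. No tested neighbour of SCD in the ETV6 experiment had a difference against tagBFP below -0.44, while that of SCD was below -3.

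The promoters of SCD and SCD5 are shown because their enzymes share a reaction, and that of ELOVL6 because it had the largest called fall among the other members. The lines give bases from RefSeq windows around gene starts on GRCh38.p14. Each stretch ends before the RefSeq start or the start of the transcript with most reads, whichever lies further upstream. That of ELOVL6 lies within the annotated span of the gene. They are chr10:100346983-100347123 on the plus strand for SCD, chr4:82798858-82799046 on the minus strand for SCD5 and chr4:110198677-110198865 on the minus strand for ELOVL6. Each runs 5′ to 3′ along its gene, and capitals mark CCAAT on either strand.
SCD: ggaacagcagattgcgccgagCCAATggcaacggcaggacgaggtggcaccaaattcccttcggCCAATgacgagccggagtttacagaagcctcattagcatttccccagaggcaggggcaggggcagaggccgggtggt
SCD5: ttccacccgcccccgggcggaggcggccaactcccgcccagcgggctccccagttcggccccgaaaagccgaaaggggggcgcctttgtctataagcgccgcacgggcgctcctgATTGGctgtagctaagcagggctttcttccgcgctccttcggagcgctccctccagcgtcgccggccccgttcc
ELOVL6: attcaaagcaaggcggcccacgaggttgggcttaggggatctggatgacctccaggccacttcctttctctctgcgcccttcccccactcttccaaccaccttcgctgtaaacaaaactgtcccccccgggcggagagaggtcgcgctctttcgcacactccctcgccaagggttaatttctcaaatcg
CCAAT, the box bound by NF-Y, a usual partner of SREBP, stood at 2 places in the SCD stretch and at 1 place, read as ATTGG, in that of SCD5. ELOVL6 had none. Of 35116 RefSeq windows of 300 bases around gene starts, 34.6% hold CCAAT on either strand. The sterol element TCACNCCAC (1.13% of windows), the ETS core CCGGAAG (10.3%) and the GGAA pair GGAAGGAA (3.67%), searched on both strands, were in no window of the 9 members with an entry. The E-box CACGTG (7.26% of windows) was in that of ELOVL5 alone. The 9 members searched include ACACA and leave out FASN, which had no entry. The FADS2 windows do not reach the start of its transcript with most reads. These matches describe letters in short windows and say nothing on binding.

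ELOVL6 (chromosome 4, 110045846 to 110199199, minus strand), the elongase that turns palmitate into the stearate that SCD uses, was the next lowest. It had 5.73, 5.20 and 6.39 CPM in ETV6_WT libraries, 9.11, 9.69 and 9.29 CPM in ETV6_R399C libraries, and 13.6, 13.6 and 12.2 CPM in tagBFP libraries. The 3 groups did not overlap one another. ELOVL6 fell with ETV6_WT by 1.19 ± 0.09 and with ETV6_R399C by 0.49 ± 0.08 on the log2 scale against tagBFP (edgeR adjusted p = 1.09e-06 and 6.44e-04). It was also lower with ETV6_WT than with ETV6_R399C, by -0.70 ± 0.09 (edgeR adjusted p = 2.69e-04), the opposite direction to SCD in that contrast.

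The ELOVL6 result depends on how transcript length is treated. Its reads are split between the transcripts ELOVL6-201 and ELOVL6-202, and ELOVL6-201 took 45.6 to 54.3% of them in ETV6_WT, 52.7 to 75.6% in ETV6_R399C and 56.3 to 63.9% in tagBFP libraries. In TPM the groups overlapped, with 2.87, 1.37 and 4.63 TPM in ETV6_WT, 3.27, 7.04 and 6.17 TPM in ETV6_R399C and 5.98, 3.88 and 6.88 TPM in tagBFP libraries. With an offset for the average transcript length the log2 differences were -0.99 for ETV6_WT and -0.11 for ETV6_R399C against tagBFP and -0.87 for ETV6_WT against ETV6_R399C, and none passed (edgeR adjusted p = 0.138, 0.888 and 0.267).

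FASN (chromosome 17, 82078333 to 82098332, minus strand), the palmitate synthase, was lower with ETV6_WT and not with ETV6_R399C. It had 629, 615 and 652 CPM in ETV6_WT libraries, 831, 809 and 829 CPM in ETV6_R399C libraries, and 880, 875 and 761 CPM in tagBFP libraries. The ETV6_WT libraries were all below those of both other groups, which overlapped each other. FASN fell with ETV6_WT by 0.41 ± 0.05 on the log2 scale against tagBFP and by 0.38 ± 0.05 against ETV6_R399C (edgeR adjusted p = 5.50e-05 and 2.48e-04), and its difference between ETV6_R399C and tagBFP was -0.03 ± 0.05 (edgeR adjusted p = 0.706). Without tagBFP replicate 3, the lowest of its group, that last difference was -0.09 and passed (edgeR adjusted p = 0.0233).

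ACLY (chromosome 17, 41866908 to 41930542, minus strand), which supplies cytosolic acetyl-CoA, had 119, 115 and 106.8 CPM in ETV6_WT libraries, 129, 144 and 135 CPM in ETV6_R399C libraries, and 154, 133 and 115 CPM in tagBFP libraries. The tagBFP libraries were the most spread of the 3 groups and overlapped both others. The log2 difference between ETV6_WT and tagBFP was -0.24 ± 0.09, just past the threshold (edgeR adjusted p = 0.0497). It no longer passed without ETV6_WT replicate 2 or 3 (log2 differences of -0.27 and -0.19, edgeR adjusted p = 0.0729 and 0.174) or without tagBFP replicate 1 or 2 (-0.15 and -0.27, edgeR adjusted p = 0.122 and 0.0615). In the other alternative fits the difference against tagBFP passed (adjusted p = 0.0145 in DESeq2 and 0.00252 to 0.0494 in edgeR). Against ETV6_R399C the ETV6_WT difference was -0.25 ± 0.09 (edgeR adjusted p = 0.0594), which passed in DESeq2 (adjusted p = 0.00965).

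FADS1 (chromosome 11, 61799625 to 61829318, minus strand) and FADS2 (chromosome 11, 61792980 to 61867354, plus strand) encode the front-end desaturases of polyunsaturated fatty acids. Against tagBFP, both genes were lower with ETV6_WT and higher with ETV6_R399C. FADS1 had 237, 215 and 233 CPM in ETV6_WT libraries, 322, 329 and 303 CPM in ETV6_R399C libraries, and 269, 268 and 254 CPM in tagBFP libraries. FADS2 had 533, 466 and 515 CPM in ETV6_WT libraries, 729.5, 738 and 681 CPM in ETV6_R399C libraries, and 641, 621 and 606 CPM in tagBFP libraries. For both genes the ETV6_WT libraries were the lowest, the tagBFP libraries lay between, and the ETV6_R399C libraries were the highest, with no overlap.

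FADS1 fell with ETV6_WT by 0.21 ± 0.04 and rose with ETV6_R399C by 0.27 ± 0.04 on the log2 scale against tagBFP (edgeR adjusted p = 0.00258 and 3.50e-04). FADS2 fell with ETV6_WT by 0.30 ± 0.05 and rose with ETV6_R399C by 0.20 ± 0.05 (edgeR adjusted p = 4.66e-04 and 0.00548). The direct contrast of ETV6_WT with ETV6_R399C gave -0.48 ± 0.04 for FADS1 and -0.50 ± 0.05 for FADS2 (edgeR adjusted p = 1.53e-05 and 2.72e-05). The annotated spans of these genes overlap on opposite strands. The library kit keeps the strand, but the strand setting of the read assignment is not given in the sources used here, so their reads may not be fully separate.

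ELOVL5 (chromosome 6, 53267398 to 53349179, minus strand), which elongates polyunsaturated fatty acids, was the only analysed member higher with ETV6_WT than with tagBFP by the test. It had 213, 203 and 202 CPM in ETV6_WT libraries, 198, 203 and 201 CPM in ETV6_R399C libraries, and 181, 179 and 193 CPM in tagBFP libraries. Every transgene library was above every tagBFP library. ELOVL5 rose with ETV6_WT by 0.16 ± 0.03 and with ETV6_R399C by 0.12 ± 0.03 on the log2 scale (edgeR adjusted p = 0.00289 and 0.0121). Without tagBFP replicate 1 or replicate 2 the ETV6_R399C difference did not pass (edgeR adjusted p = 0.0562 and 0.0633).

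ACSL3 (chromosome 2, 222860934 to 222944639, plus strand), an acyl-CoA synthetase of the endoplasmic reticulum and lipid droplets, had 139, 124 and 130 CPM in ETV6_WT libraries, 151, 156 and 145 CPM in ETV6_R399C libraries, and 149, 146 and 148 CPM in tagBFP libraries. The ETV6_WT libraries were below all others. ACSL3 fell with ETV6_WT by 0.17 ± 0.04 against tagBFP and by 0.20 ± 0.04 against ETV6_R399C on the log2 scale (edgeR adjusted p = 0.00604 and 0.00469). With the transcript length offset the differences were -0.12 ± 0.10 and -0.25 ± 0.10, and neither passed (edgeR adjusted p = 0.433 and 0.154).

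**Figure D2:**
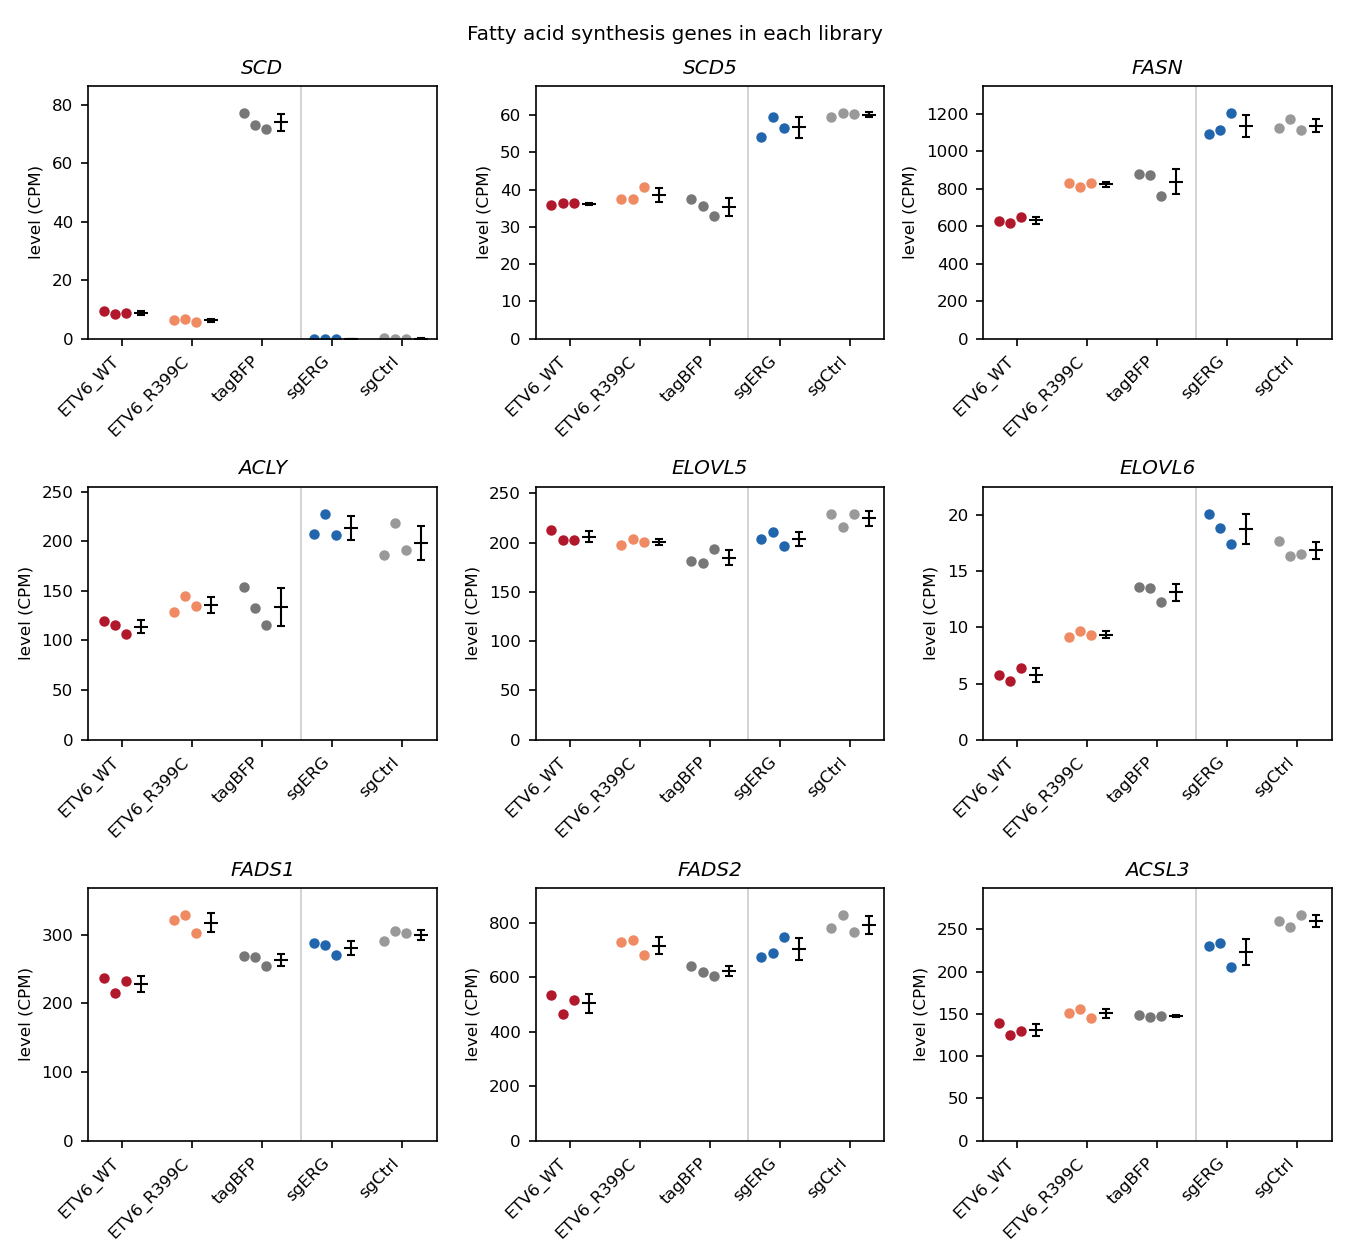
The 9 analysed members in CPM in each library, with the mean ± SD (n = 3) beside the points and 1 panel per gene, each with its own axis from 0. The grey line parts the experiments, whose CPM were scaled apart. FASN, FADS1, FADS2, ELOVL6 and ACSL3 are lower in ETV6_WT than in ETV6_R399C libraries with no overlap. So are SCD5 and ACLY, which did not pass edgeR in that contrast. SCD alone is near 0 in the sgERG and sgCtrl libraries.

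Counted over the 8 analysed members other than SCD, 6 were lower, 1 higher and 1 not called with ETV6_WT against tagBFP, where 36.5% of all 14242 genes tested were called (18.9% lower and 17.6% higher). With ETV6_R399C against tagBFP 1 was lower, 3 were higher and 4 were not called, where 40.9% of genes were called (22.1% lower and 18.8% higher). Between groups, 6 of the 8 did not overlap with ETV6_WT and 4 of the 8 with ETV6_R399C against tagBFP, as did 48.2% and 50.8% of all genes. The choice of the set used these contrasts, which also share the tagBFP libraries, and nothing is read from those counts. In ETV6_WT against ETV6_R399C 5 of the 8 were lower and 0 higher, where 21.4% of genes were called (9.29% lower and 12.1% higher). In that contrast 7 of the 8 did not overlap between the groups, as did 38.4% of all genes, and the median log2 difference of the 8 was -0.32, beside 0.02 over all genes tested. It uses the same transgene libraries, and the members were chosen with results of these data known, so its counts too are a description.

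**Figure D3:**
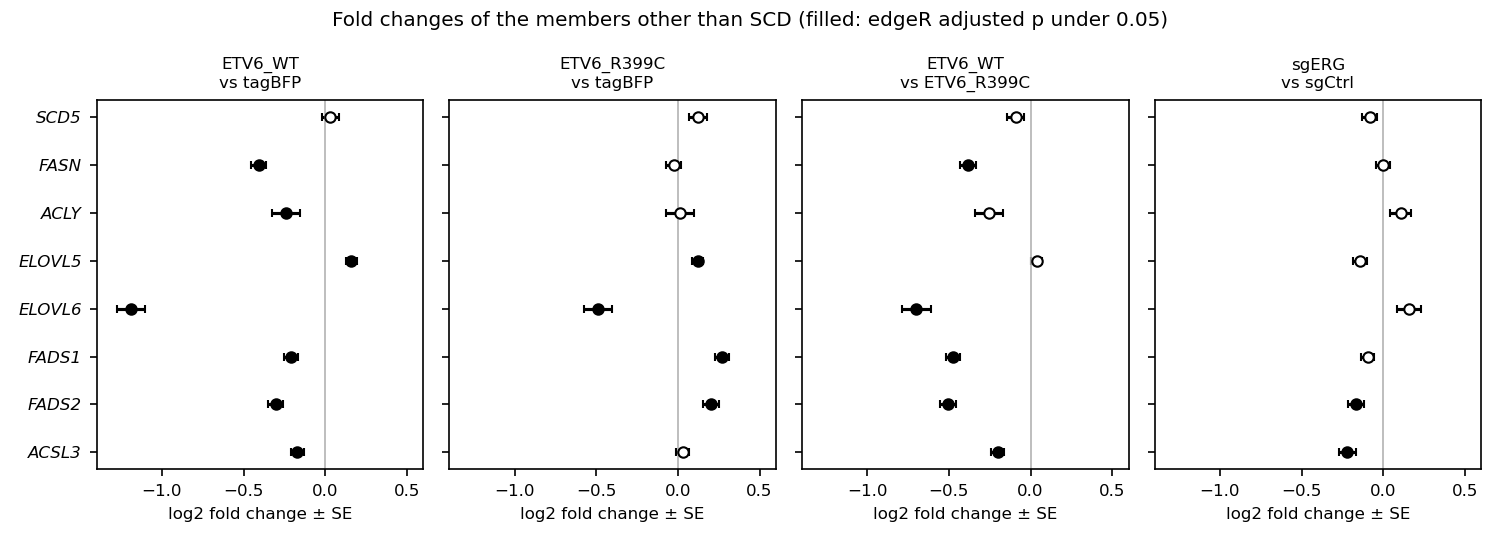
Log2 fold change ± SE of the 8 analysed members other than SCD in the 4 comparisons, the group named on top minus the group under it. Filled points passed edgeR at an adjusted p under 0.05. FADS1 and FADS2 lie below 0 for ETV6_WT and above 0 for ETV6_R399C against tagBFP, and ELOVL6 has the lowest value, -1.19.

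With knockdown of ERG, ACSL3 and FADS2 were lower by the test. These were 2 of the 8 members tested, and 0 were higher in sgERG than in sgCtrl libraries, where 14.6% of all 13464 genes tested were called (7.74% lower and 6.89% higher). The median log2 difference of the 8 was -0.09, beside 0.00 over all genes. ACSL3 had 230, 233 and 205 CPM in sgERG libraries and 260, 252 and 267 CPM in sgCtrl libraries, and FADS2 had 674, 690 and 749 CPM in sgERG libraries and 780, 829 and 766 CPM in sgCtrl libraries. Neither gene overlapped between the guides, as 34.6% of all genes tested did not. ACSL3 fell by 0.22 ± 0.05 and FADS2 by 0.17 ± 0.05 on the log2 scale (edgeR adjusted p = 0.0172 and 0.0427).

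Both calls were sensitive to which libraries were used. ACSL3 no longer passed without sgCtrl replicate 1 or replicate 3, where its log2 difference was -0.22 and -0.20 (edgeR adjusted p = 0.0742 and 0.0841). FADS2 no longer passed without any single library other than sgERG replicate 3, where its log2 difference was -0.19 to -0.13 (edgeR adjusted p = 0.0773 to 0.145). FASN stood at 1136 ± 59.8 CPM in sgERG and 1137 ± 32.7 CPM in sgCtrl libraries (SD, n = 3 each), a log2 difference of 0.00 ± 0.04 (edgeR adjusted p = 0.986). ELOVL6 had 18.8 ± 1.33 CPM in sgERG and 16.9 ± 0.735 CPM in sgCtrl libraries, which overlapped (log2 difference 0.16 ± 0.07, edgeR adjusted p = 0.187). With the length offset its difference was 0.47 ± 0.15 and did not pass (edgeR adjusted p = 0.0874), and in TPM the groups did not overlap, at 10.4 to 12.2 TPM in sgERG and 6.60 to 9.98 TPM in sgCtrl libraries. ELOVL5 had 204 ± 7.10 CPM in sgERG and 224 ± 7.68 CPM in sgCtrl libraries, with a log2 difference of -0.14 ± 0.04 that missed the threshold in edgeR (adjusted p = 0.0535) and passed in DESeq2 (adjusted p = 0.0227). FADS1 and ACLY had log2 differences of -0.09 ± 0.04 and 0.11 ± 0.06 (edgeR adjusted p = 0.151 and 0.306).

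Per transcript length, FADS2 was the most abundant member in each group, at 241 ± 8.04 TPM in ETV6_WT, 353 ± 7.86 in ETV6_R399C, 292 ± 12.4 in tagBFP, 315 ± 6.80 in sgERG and 359 ± 11.9 TPM in sgCtrl libraries. FASN was next, from 112 ± 4.26 TPM in ETV6_WT to 202 ± 3.04 TPM in sgCtrl libraries. ELOVL5, FADS1, ACSL3 and ACLY followed in the order of their TPM in 4 of the 5 groups. In sgCtrl libraries ACSL3, at 121 ± 1.77 TPM, and FADS1, at 121 ± 4.95 TPM, changed places and differed by less than their spread. SCD5 and ELOVL6 stood below them in every group, with SCD last in each group but tagBFP. There its mean of 14.4 TPM lay above the 12.8 TPM of SCD5. SCD was above SCD5 within each tagBFP library, though their ranges over the libraries overlapped.

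Reads of FADS2 and ACLY were divided among their transcripts differently in the groups. FADS2-202, which starts at 61827761, had 295 ± 35.3 RPM, reads scaled to all reads of the library, in ETV6_WT, 457 ± 25.2 RPM in ETV6_R399C and 362 ± 14.2 RPM in tagBFP libraries. FADS2-201, which starts upstream at 61816256, had 107.4 ± 4.80 RPM in ETV6_WT, 142 ± 8.88 RPM in ETV6_R399C and 147 ± 2.73 RPM in tagBFP libraries. The higher FADS2 level with ETV6_R399C than with tagBFP was thus seen in FADS2-202 and not in FADS2-201, the libraries of which overlapped between ETV6_R399C and tagBFP. In the CRISPR interference experiment FADS2-202 had 544 ± 34.0 RPM in sgERG and 572 ± 19.2 RPM in sgCtrl libraries, and FADS2-201 had 49.3 ± 5.12 RPM in sgERG and 75.8 ± 9.86 RPM in sgCtrl libraries. The transcripts were not tested.

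ACLY-203 took 94.02 to 99.05% of the ACLY reads in ETV6_WT, 95.7 to 98.6% in ETV6_R399C and 88.9 to 98.03% in tagBFP libraries. It took 33.2 to 46.5% in sgERG and 32.1 to 35.2% in sgCtrl libraries, where ACLY-202 held 22.3 to 29.1% and 25.9 to 27.01%, and ACLY-207 held 25.7 to 29.6% and 31.1 to 34.6%. The difference between length and effective length, a measure of the fragment size Salmon assumed, had a median of 335 to 353 bases in the ETV6 experiment and of 277 to 292 bases in the CRISPR interference experiment, for transcripts over 2000 bases. The part of this in the split of ACLY reads was not tested.

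**Figure D4:**
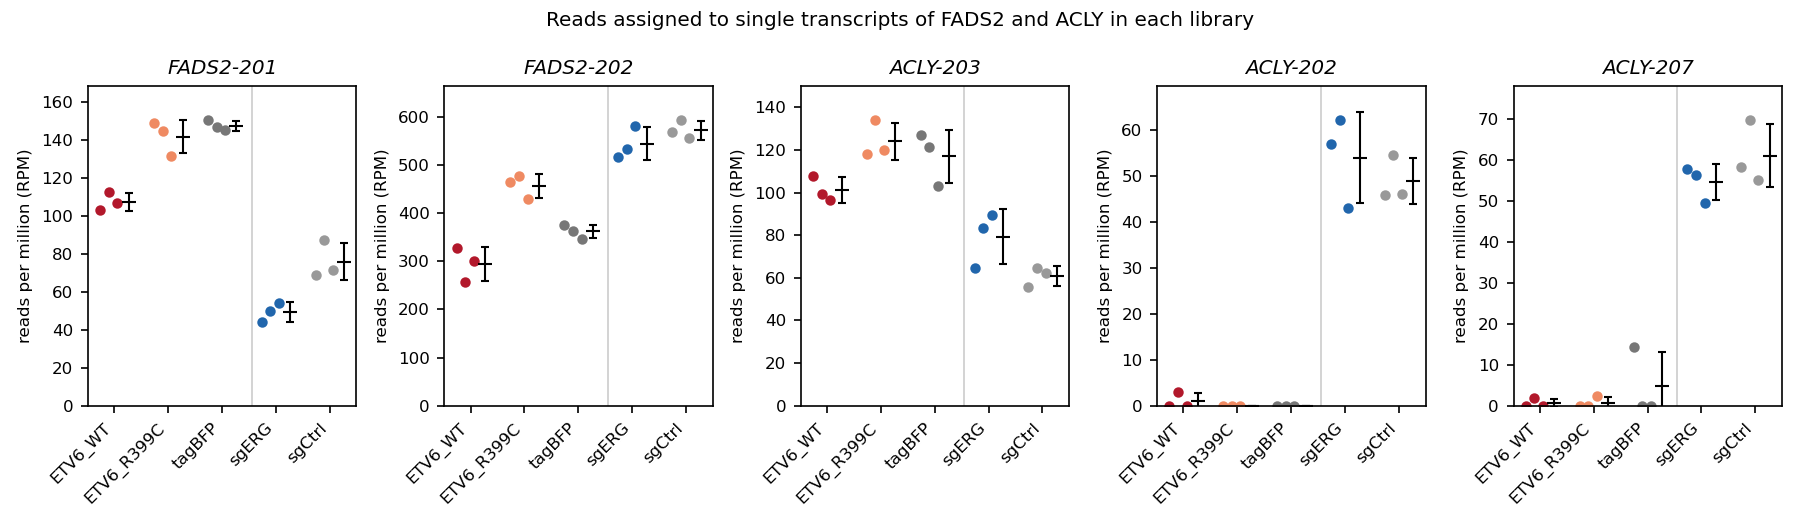
RPM assigned to FADS2-201, FADS2-202, ACLY-203, ACLY-202 and ACLY-207 in each library, with the mean ± SD (n = 3) beside the points. FADS2-202 is highest with ETV6_R399C within the ETV6 experiment, and ACLY-202 and ACLY-207 reach 42.9 RPM or more only in the sgERG and sgCtrl libraries.

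The 5 protein-coding genes whose group means lay nearest to those of SCD were C17orf51, MTRNR2L10, MTRNR2L4, MTRNR2L11 and DMD, with a root mean square difference of 1.04 to 1.15 on the log2(CPM + 0.5) scale over the 5 groups, among 10076 candidates. None matched closely: the nearest, C17orf51, averaged 5.19 CPM in ETV6_WT, 9.84 in ETV6_R399C, 16.7 in tagBFP, 0.268 in sgERG and 0.150 CPM in sgCtrl libraries, and ranged from 1.23 to 12.9 CPM among the ETV6_WT libraries alone. DMD, the dystrophin gene, averaged 7.24 CPM in ETV6_WT, 10.7 in ETV6_R399C and 11.4 CPM in tagBFP libraries and had 3 reads in all in the sgERG and 3 in the sgCtrl libraries. The MTRNR2L genes are near-identical copies of a mitochondrial ribosomal RNA gene, so their counts are uncertain.

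The regulators of the pathway were followed in a list of 23 SREBP, LXR and related genes, 22 of them tested in the ETV6 experiment. With ETV6_R399C against tagBFP 8 were higher and 3 lower, with ETV6_WT against tagBFP 3 were higher and 4 lower, and in ETV6_WT against ETV6_R399C 2 were higher and 7 lower. Over all genes tested, against which the counts of this and the other lists are to be read, 18.8% were higher and 22.1% lower with ETV6_R399C against tagBFP, 17.6% were higher and 18.9% lower with ETV6_WT against tagBFP, and 12.1% were higher and 9.29% lower with ETV6_WT against ETV6_R399C. The ETV6_WT counts against tagBFP are near those shares. INSIG1, the protein that holds SREBP in the endoplasmic reticulum and is itself an SREBP target, averaged 361 ± 22.5 CPM in ETV6_WT, 539 ± 23.8 CPM in ETV6_R399C and 380 ± 19.3 CPM in tagBFP libraries (SD, n = 3 each). It rose with ETV6_R399C by 0.50 ± 0.05 on the log2 scale against tagBFP and was lower with ETV6_WT than with ETV6_R399C by -0.58 ± 0.05 (edgeR adjusted p = 1.39e-05 and 1.27e-05).

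SREBF2, which encodes the SREBP of cholesterol synthesis, averaged 384 ± 12.9 CPM in ETV6_WT, 467 ± 11.8 CPM in ETV6_R399C and 388 ± 17.0 CPM in tagBFP libraries. The SREBF2 difference of ETV6_R399C against tagBFP was 0.26 ± 0.04, and SREBF2 was lower with ETV6_WT than with ETV6_R399C by -0.28 ± 0.04 (edgeR adjusted p = 1.56e-04 and 3.01e-04). SREBF1, which encodes the SREBP of fatty acid synthesis and was picked out after its values were seen, had log2 differences of -0.09 ± 0.04 with ETV6_WT and 0.11 ± 0.04 with ETV6_R399C against tagBFP (edgeR adjusted p = 0.105 and 0.0467). MLXIP, a glucose-sensing transcription factor, averaged 683 ± 20.3 CPM in ETV6_WT, 568 ± 8.97 CPM in ETV6_R399C and 266 ± 9.54 CPM in tagBFP libraries, and rose by 1.36 ± 0.03 and 1.10 ± 0.03 with the transgenes (edgeR adjusted p = 1.8e-10 and 1.4e-09).

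Of the 6 LXR targets other than SCD, 5 were tested. With ETV6_WT against tagBFP 0 passed by edgeR and 0 by DESeq2, and 2 had an unadjusted p under 0.05 in edgeR. With ETV6_R399C against tagBFP the cholesterol exporter ABCA1 (0.36 ± 0.07) and the ubiquitin ligase MYLIP (0.21 ± 0.05) were higher on the log2 scale (edgeR adjusted p = 0.0023 and 0.0044), and both were lower with ETV6_WT than with ETV6_R399C, by -0.48 ± 0.07 and -0.33 ± 0.05 (edgeR adjusted p = 9.8e-04 and 8.5e-04). Of the 5 tested, 2 were higher and 0 lower with ETV6_R399C against tagBFP. The part of LXR in the SCD level was not tested.

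Genes that act before and after the members in the pathway were counted in the same way. Of 8 genes of acetyl-CoA supply and carboxylation, 6 were tested, of which 1 was higher and 3 lower with ETV6_WT, and 3 higher and 1 lower with ETV6_R399C, against tagBFP. MID1IP1, an activator of acetyl-CoA carboxylase, was lower with ETV6_WT by -0.17 ± 0.03 and higher with ETV6_R399C by 0.15 ± 0.03 against tagBFP (edgeR adjusted p = 8.9e-04 and 0.0015). ACSS2, which makes acetyl-CoA from acetate, averaged 17.4 ± 1.65 CPM in ETV6_WT, 19.0 ± 2.17 CPM in ETV6_R399C and 12.4 ± 0.237 CPM in tagBFP libraries. It rose by 0.49 ± 0.09 and 0.62 ± 0.09 on the log2 scale (edgeR adjusted p = 0.0012 and 2.0e-04). Of 8 tested elongation cycle genes, 1 was lower and 1 higher with each transgene against tagBFP: HSD17B12, the ketoacyl-CoA reductase of the cycle, had -0.28 ± 0.04 with ETV6_WT and 0.13 ± 0.03 with ETV6_R399C (edgeR adjusted p = 8.2e-05 and 0.0085).

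Among 8 tested acyl-CoA synthetases other than ACSL3, 2 were lower and 1 higher with ETV6_WT against tagBFP, and 0 passed by edgeR and 0 by DESeq2 with ETV6_R399C against tagBFP, where 3 had an unadjusted p under 0.05 in edgeR. ACSL4, which prefers polyunsaturated fatty acids such as arachidonate, averaged 72.9 ± 0.760 CPM in ETV6_WT, 113 ± 4.06 CPM in ETV6_R399C and 106.7 ± 0.910 CPM in tagBFP libraries, and ACSL5 19.1 ± 0.808, 30.4 ± 2.21 and 33.6 ± 1.42 CPM in the same groups. ACSL4 fell with ETV6_WT by 0.55 ± 0.03 and ACSL5 by 0.81 ± 0.06 on the log2 scale against tagBFP (edgeR adjusted p = 1.4e-07 and 1.4e-06). Against ETV6_R399C they were lower with ETV6_WT by -0.63 ± 0.03 and -0.67 ± 0.06 (edgeR adjusted p = 2.2e-07 and 2.4e-05).

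Of 5 tested genes of fatty acid uptake and binding, 0 were higher and 2 lower with ETV6_WT against tagBFP. With ETV6_R399C against tagBFP 1 was higher and 2 were lower. FABP5, a fatty acid binding protein, had log2 differences of -0.42 ± 0.06 with ETV6_WT and -0.71 ± 0.06 with ETV6_R399C (edgeR adjusted p = 3.0e-04 and 6.0e-06), and the lipoprotein receptor SCARB1 had -0.39 ± 0.04 and -0.19 ± 0.04 (edgeR adjusted p = 1.5e-05 and 0.0022). Of 7 desaturase electron donors and other desaturases, 1 was higher and 2 lower with ETV6_WT, and 2 were higher and 4 lower with ETV6_R399C; FADS3, whose product resembles the FADS1 and FADS2 enzymes, was higher by 0.31 ± 0.06 and 0.32 ± 0.06 (edgeR adjusted p = 0.0017 and 0.0013).

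Of 13 tested genes of fatty acid oxidation, 2 were higher and 2 lower with ETV6_WT, and 0 were higher and 6 lower with ETV6_R399C, against tagBFP, where the lowest of those named by the rule was -0.16 ± 0.03 for ACAA2, a thiolase (edgeR adjusted p = 0.0028). Of 6 tested genes of mitochondrial fatty acid synthesis, 2 were lower with ETV6_WT and 3 with ETV6_R399C. NDUFAB1, the mitochondrial acyl carrier protein, had -0.28 ± 0.06 and -0.45 ± 0.06 (edgeR adjusted p = 0.0022 and 7.8e-05). Of 10 tested genes of glycerolipid assembly and storage, 3 were higher and 2 lower with ETV6_WT and 2 were higher and 3 lower with ETV6_R399C, with PLIN2, which coats lipid droplets, at -0.22 ± 0.04 and -0.14 ± 0.04 (edgeR adjusted p = 0.0010 and 0.012).

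**Figure D5:**
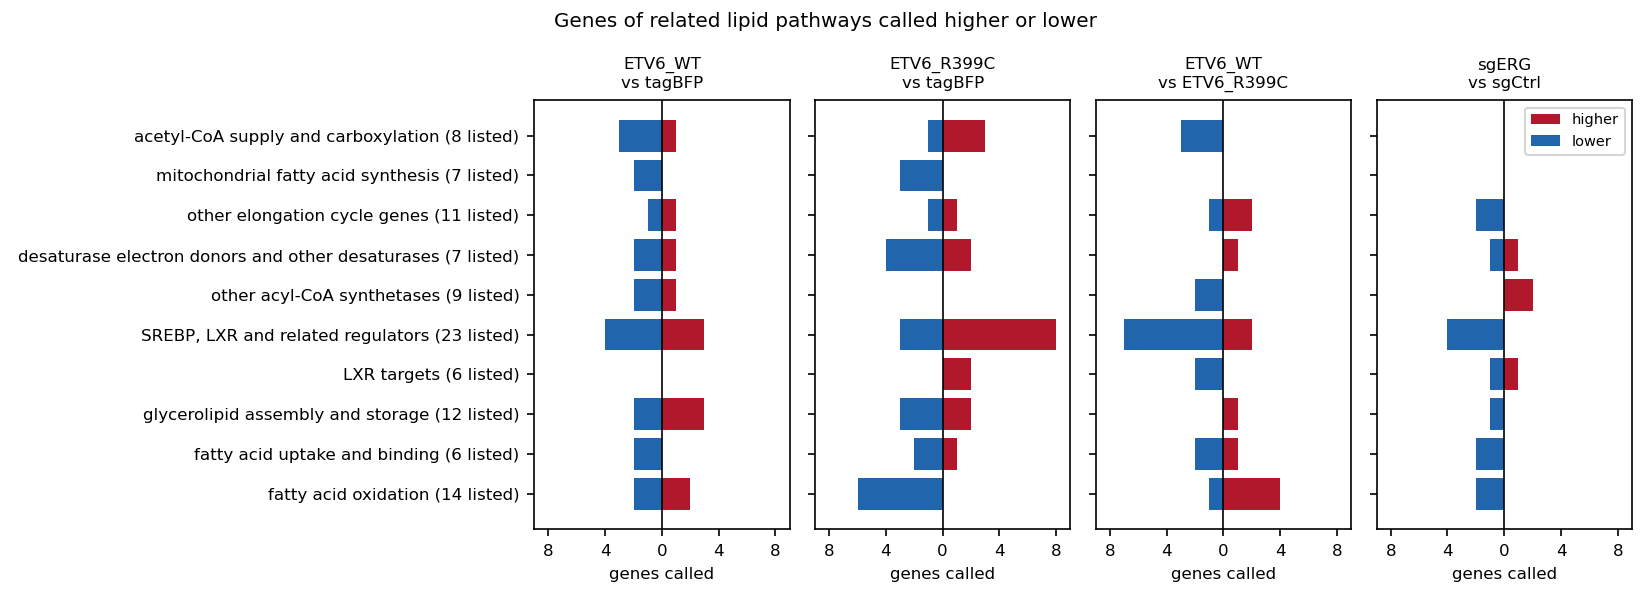
Number of genes called higher (right of 0, red) or lower (left of 0, blue) in 10 lists of related lipid genes in the 4 comparisons, by edgeR at an adjusted p under 0.05. The tallest count is that of the SREBP, LXR and related regulators, which are also the longest list, with 22 tested. Of these, 8 are higher with ETV6_R399C than with tagBFP, as are 18.8% of all genes tested. With ETV6_WT against ETV6_R399C 7 of them are lower, as are 9.29% of all genes tested.

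In sgERG against sgCtrl libraries, 4 of 21 tested regulators were lower and 0 higher, beside 7.74% and 6.89% of all genes tested. INSIG1 averaged 375 ± 3.95 CPM in sgERG and 499 ± 1.91 CPM in sgCtrl libraries, and fell by 0.41 ± 0.03 on the log2 scale (edgeR adjusted p = 1.85e-05). MLXIPL, the glucose-responsive partner of MLX, had 0 to 4 reads in sgERG and 13 to 41 reads in sgCtrl libraries (edgeR adjusted p = 0.011). Of the LXR targets, ABCG1 fell by 0.64 ± 0.05 and ABCA1 rose by 0.37 ± 0.04 (edgeR adjusted p = 7.3e-06 and 9.6e-05). ACSL5, which encodes a mitochondrial acyl-CoA synthetase, averaged 47.3 ± 2.47 CPM in sgERG and 31.3 ± 1.69 CPM in sgCtrl libraries and rose by 0.60 ± 0.06, and CPT1A, the entry enzyme of mitochondrial fatty acid oxidation, averaged 5.71 ± 0.388 CPM in sgERG and 8.67 ± 0.427 CPM in sgCtrl libraries and fell by 0.60 ± 0.09 (edgeR adjusted p = 1.0e-04 and 0.0017).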

How the data were processed

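RNA sequencing of 15 Reh libraries was analysed from 1 Salmon table per library. Per the file headers, the authors' tables give, for 167268 transcripts, an estimated count of reads, TPM, length and effective length. The tool was Salmon 0.11.3 and the build hg38, per the submitters' processing notes. Strand setting: not given in the sources used here. Transcript IDs were named through GENCODE 29 (90.298% named), and the deposited expected counts were summed per gene and rounded to whole numbers. Reads without a named gene, 6.67 to 7.55% of a library, were left out. The authors' deposited TPM, summed per gene, were used for levels between genes and between experiments. The experiments were fitted apart, with edgeR 4.0.16 in R 4.3.3 (filterByExpr, TMM, quasi-likelihood test, Benjamini-Hochberg adjustment over all genes tested, threshold 0.05), over 14242 genes in 9 libraries and 13464 genes in 6. An SE is the size of the log2 change divided by the square root of F, so it restates the test. RPM divides by all reads of a library. Numbers of reads cover counting error only.

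The members and lists were chosen with earlier results of these data known. The text names every member, at most 4 called genes of smallest p per list and comparison, the neighbours of SCD, and the 5 genes of at least 5 CPM in tagBFP with the profile nearest to SCD. Promoter windows are RefSeq's on GRCh38.p14, with 9 of 10 members, all but FASN, matched by symbol. The fits were tested on simulated counts. Alternatives were DESeq2 1.42.0 size factors or its test, no low-count filter, an offset for transcript length, the replicate number as a block, and each library left out in turn. No test is given for SCD, which is in no count of called members. The result of 1 gene in the lists is not reported here.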

Additional observations from a re-analysis of the deposited data

How the results depend on the processing

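Of the recomputed differences of members other than SCD, 312 kept their direction and their side of the threshold, 13 that were not called changed sign and stayed uncalled, 19 lost the call and 8 gained one, and no called difference changed direction. With the transcript length offset, 2911 genes passed for ETV6_WT against tagBFP (5202 without it), 3428 for ETV6_R399C against tagBFP (5826 without it) and 1236 for ETV6_WT against ETV6_R399C (3044 without it), and the cause was not tested. Leaving out 1 library gave 4322 to 4813 genes for ETV6_WT against tagBFP, 4865 to 5594 for ETV6_R399C against tagBFP, 2008 to 3110 for ETV6_WT against ETV6_R399C and 1160 to 2302 for sgERG against sgCtrl (1969 with all libraries). The lowest of these came without ETV6_R399C replicate 1 (2008), without ETV6_WT replicate 2 (2009) and without sgCtrl replicate 1 or 3 (1160 and 1162). Of the 8 members other than SCD, those called without 1 library were 6 to 7 for ETV6_WT against tagBFP (29.9 to 33.5% of all genes tested), 3 to 5 for ETV6_R399C against tagBFP (33.8 to 38.7%), 5 in each case for ETV6_WT against ETV6_R399C (14.0 to 21.5%) and 0 to 2 for sgERG against sgCtrl (8.54 to 16.8%). They were 0 without sgCtrl replicate 1 or 3, where 8.54 and 8.57% of genes were called.

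Samples with the same replicate number did not deviate together (correlations of -0.062 to 0.069), so no shared effect of the number was seen. These values cannot tell whether such samples were handled together. With the replicate block, 1 member passed in sgERG against sgCtrl (2 without the block), FADS2 having an edgeR adjusted p of 0.088, and ACLY passed in ETV6_WT against ETV6_R399C (edgeR adjusted p = 0.0387). ACLY also passed there with no filter (0.0081) and with the length offset (0.0098), and ELOVL5 passed in sgERG against sgCtrl with no filter (0.048). SCD, with 0 to 4 reads per library, was too low for a comparison of sgERG with sgCtrl at this depth.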
